A study of Sus scrofa with 16 samples.

Results

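The cluster of miR-221 and miR-222 in the sow ovary was represented by 3 of the 1940 entries of the deposited small RNA count table, chosen by name. The entries ssc-miR-221-5p and ssc-miR-221-3p held the same counts in every library, so the arms could not be separated and were counted once as miR-221. Together with ssc-miR-222 this left 2 miRNAs, and no other entry shared their counts. Both passed the filter on low counts in every comparison. In RefSeq (assembly Sscrofa11.1, used here only for names and gene order) MIR221 and MIR222 are adjacent miRNA genes on chromosome X, with a pseudogene on the MIR221 side and a long non-coding RNA gene on the MIR222 side.

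MicroRNAs are short RNAs that guide the silencing complex to partly complementary mRNAs, which are then translated less or degraded. miR-221 and miR-222 are cut from hairpins encoded close together, share a seed, and are known to target the mRNAs of the cell cycle inhibitor CDKN1B and of the receptor KIT. They are abundant in endothelial and vascular smooth muscle cells. The ovary in the luteal phase holds corpora lutea, which are densely vascularised steroid-producing glands formed from ovulated follicles, and in the follicular phase it holds regressed corpora lutea and growing follicles in which KIT and its ligand act.

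Ovarian tissue came from 16 unrelated Canadian Large White sows without any treatment or engineered allele, and each sow gave 1 small RNA library. Whether a whole ovary or a piece was used is not stated. The LH group (high fecundity) and the LL group (low fecundity) were collected in the luteal phase on day 14, counting the first day of estrus as day 1, and the FH group (high fecundity) and the FL group (low fecundity) in the follicular phase on day 20, with 4 sows in each of the 4 groups. Fecundity was assigned from litter size, and the sows' ages were not used here. The sow records list higher parities in LH than in LL with no overlap between them, so in the luteal phase parity and fecundity cannot be told apart. In whole tissue, fewer cells of a type and less RNA per cell also cannot be told apart.

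Total counts per library ranged from 14954411 to 24396229 in LH, from 14172683 to 24593646 in LL, from 13221020 to 37194836 in FH and from 8998496 to 24892715 in FL. Levels are given as CPM, the counts of an entry scaled to a common library size, after TMM normalization over the 16 libraries, and the TMM factors were 1.19 to 1.74 in LL against 0.670 to 1.23 in the other groups. The ovarian marker miR-202-5p was found in all 16 libraries at 64.5 to 3843 CPM, with the lowest level in FL4. Of the 16 libraries, 3 stood apart in the list of ciliated or tubal epithelium, of which 2 entries were measured. Its summed level was 21482 CPM in LH4, 15565 CPM in FL4 and 7377 CPM in FL2, whereas the LL libraries had at most 50.4 CPM and the FH libraries at most 199.7 CPM. For miR-221 and miR-222, FH vs. FL and the phase comparisons are therefore also given without these 3 libraries, a choice made after seeing the data. The ratio and the lists were not tested that way.

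miR-221 was highest in the luteal ovaries of the low fecundity sows. Its level in LH1 to LH4 was 647, 235, 369 and 495 CPM, from 10320, 5034, 6303 and 11027 counts. In LL1 to LL4 it was 679, 740 (739.62), 824 and 766 CPM, from 20108, 14341, 22282 and 22253 counts. Every LL library was above every LH library, and the LL libraries lay close together, with a coefficient of variation of 8.0% against 40.4% in LH.

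In the follicular phase miR-221 was lower in most sows. FH1 to FH4 had 326, 224, 251 and 161 CPM, from 5109, 1984, 3560 and 4444 counts. FL1 to FL4 had 141, 270.3, 154 and 693 CPM, from 2600, 2774, 1627 and 12264 counts. FL4 alone lay in the range of the LL libraries, and the other FL libraries overlapped with FH. The lowest count, 1627 in FL3, had a 95% Poisson interval of 1549 to 1708, and since PCR copies carried no molecular identifiers this interval covers counting error only.

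By group mean, miR-222 followed the same order of groups at a lower level. LH1 to LH4 had 277, 104, 198 and 193 CPM, from 4410, 2233, 3383 and 4287 counts, and LL1 to LL4 had 246, 478, 367 and 322 CPM, from 7271, 9264, 9909 and 9345 counts. Thus 3 of the 4 LL libraries were above the highest LH library, and LL1 lay below LH1. FH1 to FH4 had 110.4, 69.7, 81.5 and 46.7 CPM, from 1730, 618, 1156 and 1286 counts, and FL1 to FL4 had 43.5, 107, 62.2 and 289 CPM, from 802, 1095, 655 and 5120 counts. FL4 was again far above the other follicular libraries. The lowest count of miR-222, 618 in FH2, had a 95% Poisson interval of 570 to 669.

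**Figure D1:**
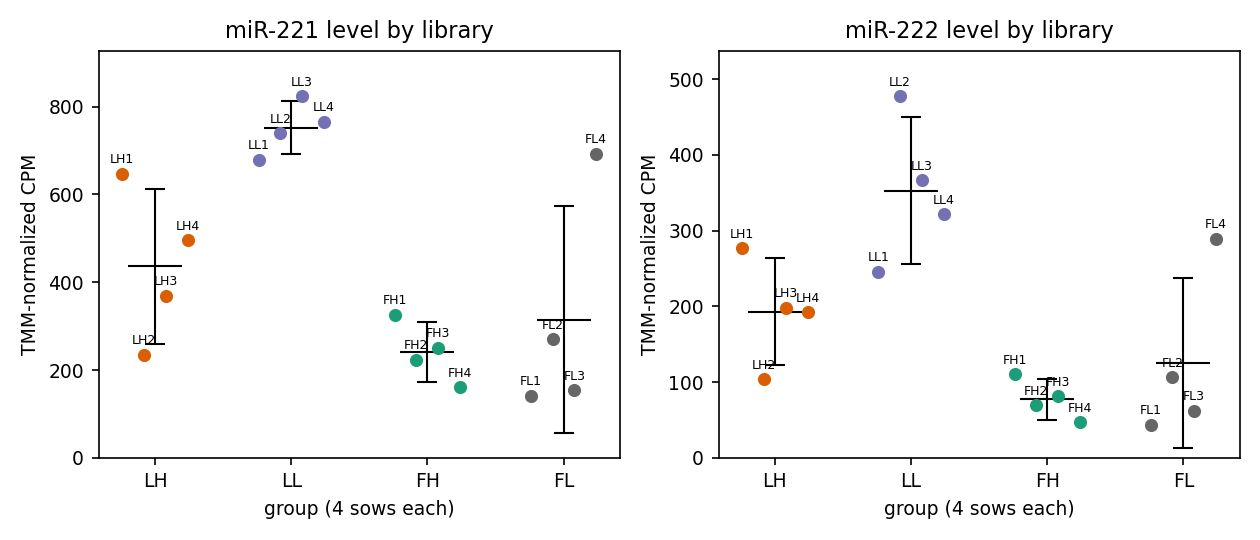
Levels of miR-221 (left) and miR-222 (right) in each of the 16 libraries, in TMM-normalized CPM on linear axes from 0. Points are single sows, and bars give the mean and SD of the 4 sows of a group. The LL libraries of miR-221 sit between 679 and 824 CPM, above all LH libraries, and FL4 stands above the other follicular libraries for both miRNAs.

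As group means, miR-221 was at 437 ± 176 CPM in LH, 752 ± 60.2 CPM in LL, 241 ± 68.2 CPM in FH and 315 ± 259 CPM in FL (SD, n = 4 sows each). miR-222 was at 193 ± 70.5 CPM in LH, 353 ± 97.1 CPM in LL, 77.1 ± 26.5 CPM in FH and 125 ± 112 CPM in FL (SD, n = 4). The order of these means from low to high was FH, FL, LH and LL for both miRNAs. By median, FL was below FH for miR-221, at 212 against 237 CPM. For miR-222 the FL median was above that of FH, at 84.5 against 75.6 CPM. The neighbours FH and FL overlapped, as did FL and LH, and LH and LL were separate for miR-221 and overlapped for miR-222. Among 196 known entries ranked by mean CPM, miR-221 was at place 56 in LL and at place 85 in FH, and miR-222 at places 83 and 111. Neither was among the most abundant miRNAs of the ovary, miR-221 taking 0.0104% (FL1) to 0.125% (LL3) of the counts of a library.

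Whether the 2 miRNAs differed with fecundity in the luteal phase was asked by comparing LH with LL. Both were higher in LL, miR-221 by a log2 fold change of 0.80 (SE 0.328, 1.74-fold) and miR-222 by 0.90 (SE 0.353, 1.86-fold). The unadjusted P was 0.0401 for miR-221 and 0.0349 for miR-222, and the adjusted p was 0.255 and 0.253 (edgeR quasi-likelihood test, Benjamini-Hochberg over 362 entries). Neither reached the study's threshold in this fit, which asks for P under 0.05 before adjustment and at least 1 log2 unit of change. Only the cutoffs are the study's, and the P values they are applied to here are those of the present fits. Of all entries tested 18.0% had an unadjusted P under 0.05 and 13.0% passed the study's threshold, and the median log2 fold change of all entries was 0.15. In an exact two-sided permutation test of 4 against 4 sows on log2(CPM + 1), p was 0.0286 for miR-221, the smallest this design can give, and 0.0571 for miR-222, and 0.0816 for both after adjustment over 10 comparisons. The groups did not overlap for miR-221, as for 9.47% of the entries in this direction. With parity as a covariate the log2 fold changes were 0.71 and 0.99, with adjusted p of 0.736 and 0.627 by edgeR. Without LH4 they were 0.85 and 0.87, with adjusted p of 0.303 and 0.362.

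The LH vs. LL differences depended in size on how the libraries were scaled. With library size only, the log2 fold change was 1.38 for miR-221 and 1.46 for miR-222, both past the study's threshold, with adjusted p of 0.0977 and 0.0965 (edgeR). That scaling moved the median of all entries from 0.15 to 0.73, and it moved the calls over all entries from 24 higher and 23 lower to 57 higher and 11 lower in LL. The library size counts both identical arms of miR-143, whose log2 fold change in the main fit was -0.94 (adjusted p = 0.170, edgeR). With library size only, the libraries were also separate for miR-222, with at most 295 CPM in LH and at least 382 CPM in LL. How many of all entries were separate on that scale was not counted. Summed levels of the striated muscle list on the TMM scale did not overlap between the same groups. They were 449 to 984 CPM in LL and 2155 to 3254 CPM in LH. Of all entries 9.47% were separate and higher in LL. The share separate and lower in LL is not given here, so these separations have no reference share. The summed vascular wall list did not overlap on the TMM scale either, with 121863 to 150979 CPM in LL and 168822 to 277130 CPM in LH. On that scale it was lower in LL, where miR-221 and miR-222 were higher. That sum held miR-143-3p at a mean of 143048 CPM in LH and 73845 CPM in LL. Its miR-126-5p went the other way, with 12105 CPM in LH and 19305 CPM in LL. Of the 12 vascular entries tested, 4 had a positive log2 fold change, and the list median was -0.18. By the study's threshold none was higher and 1 lower in LL. With library size only, 3 were higher and 1 lower, and the list median was 0.44 against 0.73 for all entries. Whether the vascular sums were separate with library size only was not examined. The part of either list in the result was not tested. The summed leukocyte list overlapped, with 316 to 1032 CPM in LH and 788 to 1247 CPM in LL, and so did the summed erythrocyte list, with 36.4 to 186 CPM and 53.3 to 112 CPM.

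In the follicular phase the comparison of FH with FL showed no difference beyond the spread between sows. The log2 fold change was 0.24 for miR-221 (SE 0.501, adjusted p = 0.891) and 0.53 for miR-222 (SE 0.572, adjusted p = 0.797) by edgeR over 307 entries. Here 6.19% of the entries passed the study's threshold, 5.54% higher and 0.651% lower in FL, and their median was 0.12. The exact permutation test gave p = 0.857 and p = 0.686 (4 against 4 sows, two-sided). The direction rested on FL4. Without this library the log2 fold change was -0.39 for miR-221 and -0.18 for miR-222, and without LH4, FL2 and FL4, which leaves 2 FL sows, it was -0.67 and -0.54. FL4 also had the highest summed leukocyte list of all libraries, 1415 CPM, the highest follicular level of the epithelial list and the lowest miR-202-5p.

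Both members averaged higher in the luteal phase, by less than the range between sows within a phase. For miR-221 the highest library was 3.51 times the lowest in the luteal phase and 4.91 times in the follicular phase. For miR-222 these ranges were 4.59 and 6.65 times. Over the 8 luteal libraries miR-221 averaged 594 ± 208 CPM and miR-222 273 ± 116 CPM, against 278 ± 180 CPM and 101 ± 79.9 CPM over the 8 follicular libraries (SD, n = 8). The luteal libraries were higher by a log2 fold change of 1.06 for miR-221 (SE 0.330, 2.08-fold, adjusted p = 0.0377) and 1.41 for miR-222 (SE 0.375, 2.65-fold, adjusted p = 0.0193) by edgeR over 445 entries. Both also passed the study's threshold, which miR-221 no longer did without LH1 (0.95), FL1 (0.98) or FL3 (0.93). With no filter on low counts the adjusted p was 0.278 and 0.200, and with a replicate block it was 0.0605 and 0.0440. Changes were common in this comparison, in which 23.4% of the entries passed the threshold (13.0% higher and 10.3% lower), 17.5% had an adjusted p under 0.05 (40 higher and 38 lower), and the median was 0.17. Scaled by library size only, these calls were 59 higher and 19 lower with a median of 0.55, and miR-221 and miR-222 were higher by 1.38 and 1.70.

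The phases overlapped in spite of the difference, as they did for most entries, only 1.80% of which were separate. For both members, 3 of the 8 luteal libraries were above the highest follicular library, FL4. The exact permutation test over 8 against 8 sows gave p = 0.00668 for miR-221 (adjusted over 10 comparisons 0.0334) and p = 0.00295 for miR-222 (adjusted 0.0295). Without FL4 the log2 fold change of miR-221 was 1.41 and that of miR-222 1.81, and without LH4, FL2 and FL4 they were 1.52 and 2.0, each with adjusted p = 0.00801 (edgeR). The adjusted call of miR-221 was close to its limit. With 1 sow left out at a time it was kept in 7 of 16 fits, and adjusted p was between 0.0517 and 0.0854 without LH1, LL2, LL3, FH2, FH3, FH4, FL1, FL2 or FL3, whereas miR-222 kept the call in all 16 (adjusted p at most 0.0460, edgeR).

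Within each fecundity class the direction was the same but the adjusted test was not passed. In the high fecundity sows the luteal libraries were higher by 0.86 for miR-221 (SE 0.464, adjusted p = 0.353) and by 1.32 for miR-222 (SE 0.529, adjusted p = 0.229) by edgeR. The miR-222 value passed the study's threshold, as did 12.8% of the entries, 8.54% in this direction, and no longer did so without LH1 (1.1) or FH4 (1.15). No entry had an adjusted p under 0.05 there by edgeR, although 70 (15.7%) had an unadjusted P under 0.05 and DESeq2 gave 39 with an adjusted p under 0.05. In the low fecundity sows the luteal libraries were higher by 1.26 for miR-221 (SE 0.468, adjusted p = 0.0852) and by 1.49 for miR-222 (SE 0.531, adjusted p = 0.0725), and both passed the study's threshold, as did 30.1% of the entries, 13.7% in this direction. By DESeq2 the adjusted p in the low fecundity sows was 0.0113 and 0.00642, and by edgeR with RLE size factors 0.0449 and 0.0414. Without FL4 the low fecundity difference was 1.99 and 2.32 (adjusted p = 0.00415 each), and without LH4, FL2 and FL4 it was 2.31 and 2.73 (adjusted p = 0.0201 each, edgeR).

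The interaction of fecundity and phase asks whether the fecundity difference was larger in the luteal phase. The interaction was 0.40 on the log2 scale for miR-221 (SE 0.652, adjusted p = 0.874) and 0.17 for miR-222 (SE 0.736, adjusted p = 0.991) by edgeR, both smaller than their standard errors. Over all 445 entries 13.3% passed the study's threshold for the interaction. No entry had an adjusted p under 0.05 by edgeR, 63 (14.2%) had an unadjusted P under 0.05, and DESeq2 gave 58 with an adjusted p under 0.05. By the adjusted test the fecundity differences of the 2 phases were thus not shown to differ. Leaving out FL4 raised both values. That for miR-221 was then 1.14 and past the study's threshold (adjusted p = 0.289 by edgeR), and that for miR-222 was 1.0 (adjusted p = 0.401). Without LH4, FL2 and FL4 both were past the study's threshold, at 1.58 and 1.46 (adjusted p = 0.451 and 0.485, edgeR).

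**Figure D2:**
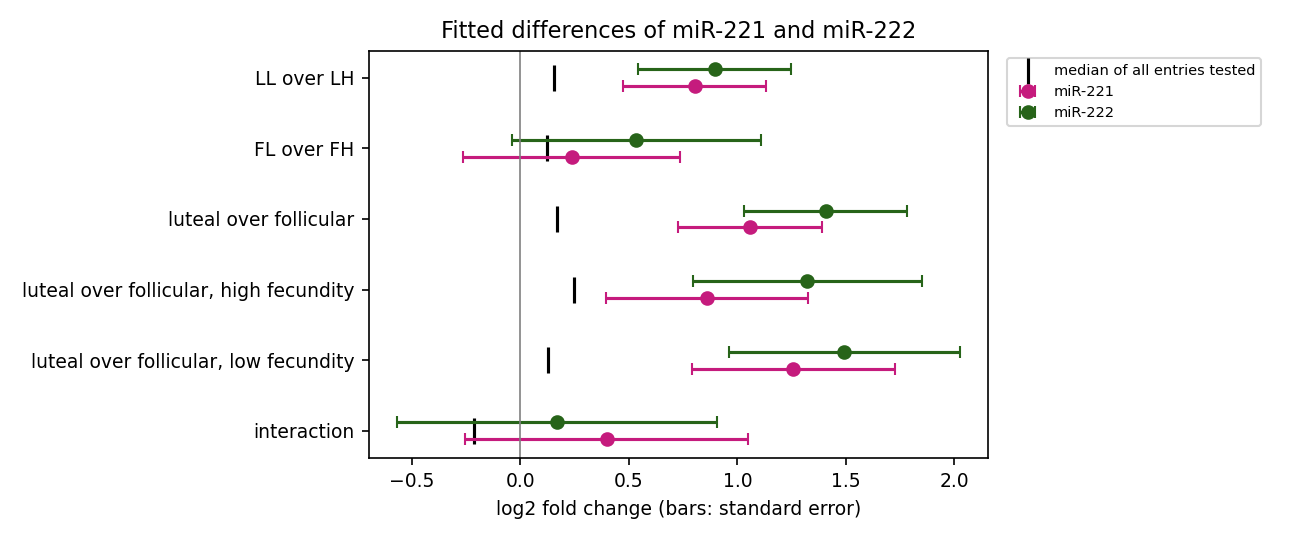
Log2 fold changes of miR-221 and miR-222 in the 6 comparisons, as points with bars of 1 standard error from edgeR. Black marks give the median of all entries tested in each comparison, and the grey line is 0. Both miRNAs lie right of the median in all comparisons, farthest in luteal over follicular of the low fecundity sows, while the bars of the interaction and of FL over FH cross 0.

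The balance between the 2 members also differed with phase. The ratio of miR-222 counts to miR-221 counts in the same library needs no scaling between libraries, and it is a ratio of reads, not of molecules. It was 0.427, 0.444, 0.537 and 0.389 in LH1 to LH4, and 0.362, 0.646, 0.445 and 0.420 in LL1 to LL4. In FH1 to FH4 it was 0.339, 0.311, 0.325 and 0.289, and in FL1 to FL4 it was 0.308, 0.395, 0.403 and 0.417. The FH libraries were all below the lowest luteal library, whereas 3 FL libraries lay within the luteal range.

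The mean ratio was 0.459 ± 0.0913 over the luteal libraries and 0.348 ± 0.0492 over the follicular ones (SD, n = 8 each). The luteal ratio was higher by 0.39 on the log2 scale (p = 0.00451, exact two-sided permutation test, adjusted over 5 comparisons 0.0225), and 6 of the 8 luteal libraries were above the highest follicular library. In high fecundity sows the difference was 0.50 with no overlap (exact permutation p = 0.0286, the smallest possible, adjusted 0.0714), and in low fecundity sows it was 0.27 (exact permutation p = 0.257). Between LH and LL the ratio differed by 0.04 (exact permutation p = 0.886), and between FH and FL by 0.26 (exact permutation p = 0.114). FL4, which stood apart in level, had a ratio of 0.417, close to those of FL2 and FL3.

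**Figure D3:**
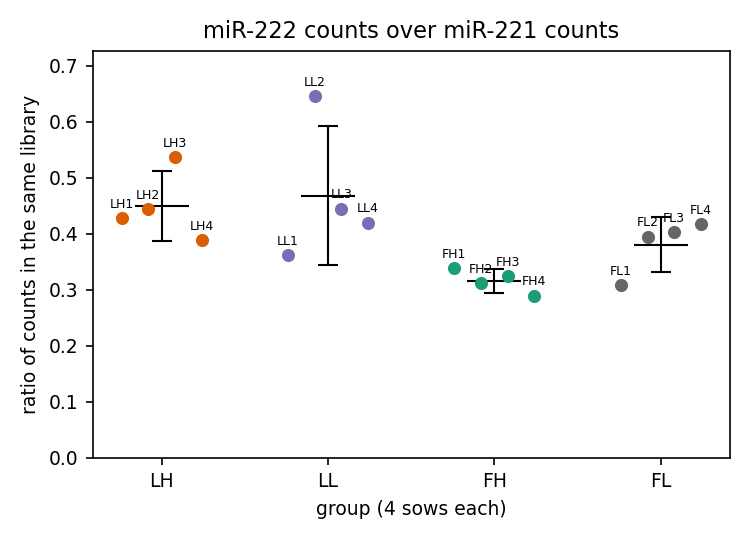
Ratio of miR-222 to miR-221 counts in each library, on a linear axis from 0. Points are single sows and bars give the mean and SD of the 4 sows of a group. The FH libraries sit between 0.289 and 0.339, below all luteal libraries, and LL2 is the highest at 0.646.

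Apart from this shift the members moved together from sow to sow. With each library's log2(CPM + 1) taken as the deviation from its group mean, miR-221 and miR-222 correlated over the 16 sows with Pearson's r = 0.953 (permutation p = 2.0e-05, the smallest that the 100000 resamples can give, adjusted over 4 relations 8.0e-05). Spearman's rho was 0.853 (permutation p = 8.0e-05, adjusted 3.2e-04). Without FL1 and FL4, the libraries farthest from the median of miR-221, r was 0.896. The 8 luteal libraries alone gave r = 0.823, and the follicular ones, also 8, gave r = 0.993. Both values of a library share its depth and its TMM factor.

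**Figure D4:**
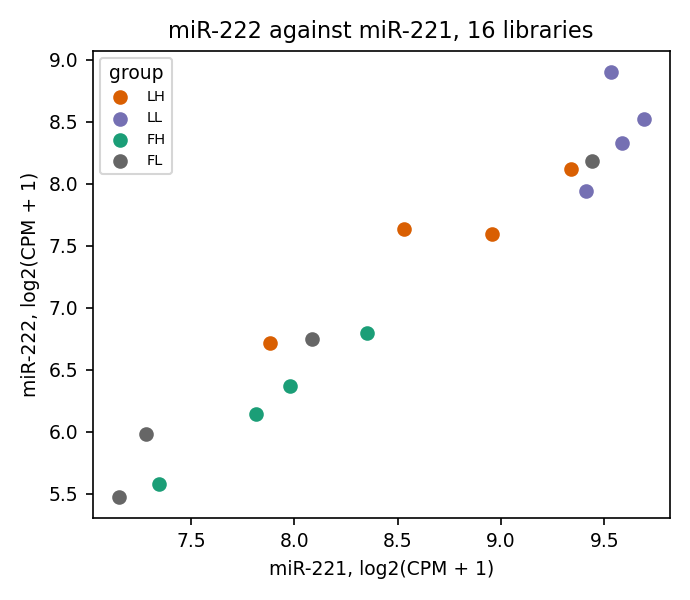
miR-222 against miR-221 in the 16 libraries, both as log2(CPM + 1), with a point per sow coloured by group. The LL libraries lie at the upper right, and 1 FL library, FL4, lies among the luteal ones.

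Among 194 other known miRNAs, those with the profile most like miR-221 over the 16 libraries were miR-2366 (Pearson r = 0.920 of log2(CPM + 1)), miR-185 (0.896), miR-1839-5p (0.880), miR-7137-5p (0.861) and miR-500 (0.853). miR-222 itself had an r of 0.975 with miR-221. For miR-222 the list was miR-2366 (0.910), miR-500 (0.895), miR-345-5p (0.888), miR-1839-5p (0.888) and miR-185 (0.885). The median r over the candidates was 0.0531 for miR-221 and 0.0416 for miR-222. These values describe the same 16 libraries and include the group differences.

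The neighbours in profile were picked with the group differences included, so a likeness of their group means follows from the choice. With values centred within groups, r with miR-221 ran from 0.622 (miR-500) to 0.894 (miR-2366) among its 5 neighbours. The group means of miR-185 were 477 CPM in LH, 1305 CPM in LL, 284 CPM in FH and 484 CPM in FL, and those of miR-500 were 80.2, 158, 46.4 and 58.9 CPM. miR-2366, at 6.79, 20.6, 3.0 and 8.02 CPM, and miR-1839-5p, at 6.83, 16.9, 1.36 and 2.80 CPM, were far less abundant than the members, so their profiles rest on few reads. miR-7137-5p had 6.57, 15.6, 4.70 and 5.63 CPM, and miR-345-5p 26.1, 34.4, 13.2 and 24.7 CPM. In LH vs. LL the log2 fold change of miR-345-5p was 0.42 (adjusted p = 0.603, edgeR).

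**Figure D5:**
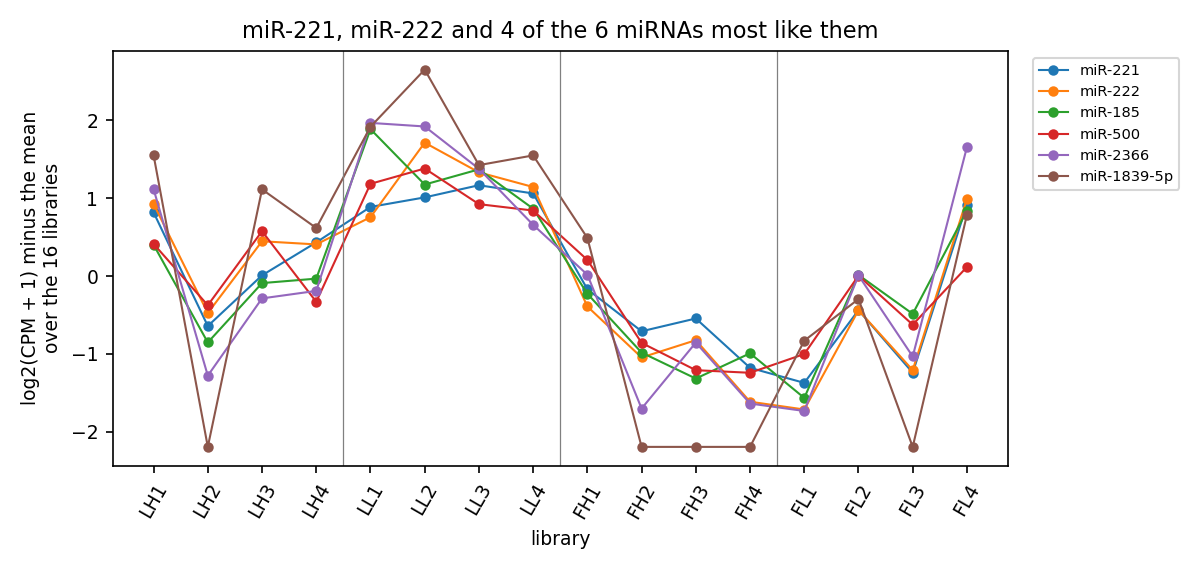
log2(CPM + 1) of miR-221, miR-222 and 4 of the 6 miRNAs with the most similar profiles in each of the 16 libraries, after subtracting each miRNA's mean over the libraries. Grey lines separate LH, LL, FH and FL. The lines of all 6 miRNAs run high through LL1 to LL4 and rise again at FL4.

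Other miRNAs known for roles in cell cycle entry were compared in the same fits. They were matched by name, whichever arm the entry gave, and miR-92b was held only as miR-92b-5p. Of the list that favours entry, made of the miR-17/92 cluster, its paralogs and miR-92b, 10 entries were tested between the phases, and none was higher and 1 lower by the study's threshold, against 13.0% higher and 10.3% lower of all entries, with a median log2 fold change of 0.06 against 0.17 for all entries. The 1 lower was miR-19b, at -1.28 (adjusted p = 0.0591, edgeR). Of 6 entries that restrain entry, from the miR-15/16 and miR-34 families, 1 was lower in the luteal phase by adjusted p, miR-497 at -1.47 (adjusted p = 0.00689), against 8.54% of all entries in this direction, with a list median of -0.46. With library size only, 1 favouring entry was higher and none lower by either rule, and 1 restraining entry was lower. In LH vs. LL 1 of 9 favouring and 2 of 6 restraining entries were lower in LL by the threshold and none was higher, against 6.35% lower of all entries. These were miR-92b-5p (log2 fold change -2.82), miR-195 (-1.29) and miR-34c (-7.63), the last an entry that the epithelial list also holds, whose summed level was 21482 CPM in LH4 and 44.9 to 125 CPM in the other LH libraries. In FH vs. FL 1 favouring entry, miR-92b-5p, was higher and 1 lower in FL, and 1 restraining entry, again miR-34c, was higher, against 5.54% higher and 0.651% lower of all entries.

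The vascular wall miRNAs were listed because miR-221 and miR-222 are abundant in vessels. Of 12 entries tested between the phases, with the identical miR-143 arms counted once and miR-24-1-5p and miR-24-2-5p almost equal in counts, 5 were lower in the luteal phase by adjusted p and none was higher, against 8.54% lower and 8.99% higher of all entries, and the list median was -0.44. miR-145-5p and miR-143-3p, which mark smooth muscle, fell by 1.89 and 1.12 (adjusted p = 0.00222 each, edgeR). miR-126-5p, which marks endothelium, had a positive log2 fold change of 0.87 (SE 0.310, adjusted p = 0.0665), and its group means were 12105 CPM in LH, 19305 CPM in LL, 10293 CPM in FH and 6808 CPM in FL. In the low fecundity sows alone miR-126-5p was higher in the luteal phase by 1.5 on the log2 scale (adjusted p = 0.0373, as for 6.07% of all entries in this direction), but no vascular entry was higher by adjusted p there with RLE size factors or with TMM on the known miRNAs. It was the 1 vascular entry higher by adjusted p there, whereas 5 of the 12 were lower, and the list median was -0.41. Over all 445 entries 27 were higher and 42 lower by this rule. In the high fecundity sows the value of miR-126-5p was 0.23 (adjusted p = 0.874), and its interaction was 1.27 (adjusted p = 0.339, edgeR). With library size only, 2 vascular entries were higher and 2 lower by adjusted p and the list median was 0.01, while the median of all entries was 0.55, so the list lay below that median under both scalings. In LH vs. LL 1 of the 12 was lower by the study's threshold, miR-10a-5p at -3.21, and in FH vs. FL none passed it.

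The remaining lists give the other cell types measured beside the phase difference. miR-202-5p, the gonadal marker, was higher in the luteal phase by 2.02 (adjusted p = 0.00824, edgeR). Of 4 leukocyte entries 2 were lower and none higher by adjusted p, of 5 striated muscle entries 3 were lower and 1 higher, against 8.54% lower and 8.99% higher of all entries, and none of the 2 erythrocyte or the 2 epithelial entries passed. The part of these cell types in the difference of miR-221 and miR-222 was not tested.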

How the data were processed

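Small RNA libraries of ovarian tissue from 16 sows were analysed, 1 per sow. The authors trimmed reads with Trimmomatic, mapped them to Sscrofa10.2 with Bowtie 2 (2.1.0) and predicted further miRNAs with miRDeep. The deposited values are raw counts per miRNA entry, not normalized, for 216 known and 1724 predicted miRNAs. How a read was assigned to an entry is not given in the sources used here, and 935 entries held the same counts as another, which counts such reads more than once in a library's total. Groups were taken from the sample labels.

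Counts were tested with edgeR 4.0.16 in R 4.3.3 (quasi-likelihood test, TMM, its filterByExpr rule set to 10 counts per library and 15 in total, Benjamini-Hochberg adjustment over all entries tested). Fecundity comparisons used their 8 libraries. The phases and the interaction used a model of 4 groups over 16 libraries, so these comparisons share libraries. Positive log2 fold changes mean higher in low fecundity or in the luteal phase, and the interaction is the luteal minus the follicular fecundity difference. Standard errors were derived from the fold change and the F statistic. Permutation tests used log2(CPM + 1) (scipy 1.17.1). The fits of LH vs. LL, FH vs. FL and luteal vs. follicular were checked on simulated counts for the sign and size of planted changes. These were larger than the main fitted changes of miR-221 and miR-222, so the check does not cover changes of their size.

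The members and lists were chosen with earlier results of these data known. Named are both members, the 5 known miRNAs most correlated with each, and from each list at most the 2 entries with the smallest P past a threshold and up to 2 further vascular entries. Alternatives were DESeq2 1.42.0, other scalings and filters, collapsed entries, robust estimation, a replicate block, parity and clean read share as covariates, and leaving out each sow.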

Additional observations from a re-analysis of the deposited data

How the results depend on the processing

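The luteal over follicular difference kept its direction for both miRNAs in every setting run. Leaving out 1 sow at a time, it ranged from 0.93 to 1.41 for miR-221, which fell below the study's threshold without LH1 (0.95), FL1 (0.98) or FL3 (0.93), and from 1.29 to 1.81 for miR-222, and adjusted p ranged from 0.00220 to 0.0854 and from 0.00220 to 0.0460. Adjusted p was 0.278 and 0.200 with no filter. The sows shared only a replicate number across groups: deviations of same-numbered libraries correlated at -0.264 to 0.181 (LH vs. LL) and -0.344 to 0.268 (FH vs. FL), and 3 and 2 of 8 libraries correlated best with their own number. With a replicate block adjusted p was 0.0605 for miR-221 (log2 fold change 1.09) and 0.0440 for miR-222 (1.46), and in LH vs. LL the block gave 0.90 and 0.93 (adjusted p = 0.394 and 0.438). The block moved the entries past the threshold from 104 to 91 between the phases, from 47 to 32 in LH vs. LL and from 19 to 4 in FH vs. FL. In LH vs. LL leave-one-out values ranged from 0.56 to 1.04 and from 0.66 to 1.1, both past the threshold without LH1. Library size only gave 1.38 and 1.46 there, and clean read share as a covariate gave 1.04 for miR-222. In FH vs. FL leave-one-out values ranged from -0.39 to 0.56 and from -0.18 to 0.89, and they were below 0 with clean read share as a covariate (-0.31 and -0.22) and without LH4, FL2 and FL4 (-0.67 and -0.54). Without those 3 libraries the interaction was 1.58 and 1.46 (adjusted p = 0.451 and 0.485). Leave-one-out values of the interaction ranged from 0.24 to 1.14 and from -0.028 (without FL1) to 1.0. In high fecundity they ranged from 0.61 to 1.04 and from 1.1 to 1.5, and miR-222, at 1.35 with no filter, lost the threshold there and without LH1 or FH4. In low fecundity they ranged from 1.08 to 1.99 and from 1.29 to 2.32. The ratio's log2 difference between the phases ranged from 0.31 to 0.43, and from -0.13 to 0.15 in LH vs. LL. The cause of these changes was not tested. The number of entries with an adjusted p under 0.05 between the phases ranged from 45 to 141 over the settings, and the number past the study's threshold from 91 to 203, highest with no filter. In LH vs. LL the latter ranged from 14 to 158, in FH vs. FL from 4 to 93, in high fecundity from 40 to 154, in low fecundity from 101 to 250 and for the interaction from 39 to 122. With 4 sows per group, counting error was small beside the spread between sows, the lowest count of miR-222 having an upper margin of 8.20%.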
